A study of Mus musculus with 12 samples.

Results

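The respiratory chain subunits described here were 88 of the 21408 genes in the expression table, picked by symbol. A gene belonged to them if its symbol, in upper case, began with NDUFA, NDUFB, NDUFC, NDUFS, NDUFV, UQCR, COX5, COX6, COX7, COX8 or ATP5, or with MT-ND, MT-CO, MT-CYTB or MT-ATP. The NDUFAF assembly factors, Ndufa4 and Ndufa4l2 were left out. The nuclear genome encodes 77 of the members, of which 36 belong to complex I, 8 to complex III, 15 to complex IV and 18 to complex V. The mitochondrial genome encodes the other 11, of which 6 belong to complex I, 1 to complex III, 3 to complex IV and 1 to complex V. The symbols also take in 4 genes that are not core subunits: the pseudogene Atp5l-ps1, Atp5s and Atp5sl, and Cox7a2l, which is known for its part in supercomplexes.

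The respiratory chain sits in the inner mitochondrial membrane. Complexes I, III and IV pass electrons from NADH to oxygen and pump protons, and complex V, the ATP synthase, uses the proton gradient to make ATP. Complexes I, III, IV and V each join subunits from both genomes, so their assembly draws on transcripts made in the nucleus and in the mitochondrion. In the retina, photoreceptor inner segments and synaptic terminals are rich in mitochondria, while Müller glia are known for a strongly glycolytic metabolism.

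The cells came from retinas of C57B6 mice and were profiled by Drop-seq, which captures RNA at its 3′ end in droplets and tags each molecule with a unique molecular identifier (UMI). Pups with oxygen-induced retinopathy (OIR) were raised by a foster mother, breathed 75% oxygen between postnatal day (P) 7 and P12, and then breathed room air. NORM pups stayed with their own mother in room air. Retinas were collected at P14 or P17 and were either used whole or depleted of rods. The 12 libraries comprised 1 NORM library for each age and fraction, and the 8 OIR libraries: at P14, 2 from rod-depleted and 3 from whole retina, and at P17, 1 and 2. Nothing in the labels says that each library is a different animal; the p-values therefore reflect variation among libraries, part of which can be technical. The columns used for the NORM whole-retina library at P14 carry the replicate number 8 where its label has 1, which makes their match to it less sure than the others.

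The libraries held 36182149 UMIs in 25472 cells, with 325667 to 7855712 UMIs and 569 to 3409 cells per library. Median UMIs per cell ran from 432 in the NORM whole-retina library at P17 to 1794.5 in replicate 2 of the OIR whole-retina libraries at P17, so every cell was thinned to 300 UMIs, which kept 24189 of the 24772 cells with at least 200 genes. Only 83.5% of cells were kept in the NORM whole-retina library at P17, against 92.1% or more elsewhere. At most 2 cell barcodes were shared by any pair of libraries, and 14 occurred in more than 1. Clustering without the subunit genes gave 28 clusters, of which 26 received a "-like" name from known markers. Lens-like cells occurred only in OIR whole-retina replicates 2 and 3 at P14, where they also held 351 to 418 UMIs per 10000 of rod transcripts. Levels are given as UMIs per 10000 UMIs of a class in a library, for classes with at least 20 cells there. Because a UMI counts a molecule by its 3′ end, the levels were not divided by transcript length.

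The promoters of 4 nuclear members named in the class comparisons are shown here, since nuclear subunit genes are known to share sites for a few factors. The 4 were picked by hand and do not represent the members as a set. Each runs from 250 bases before to 30 bases after the RefSeq start on build GRCm38.p6 and is written 5′ to 3′ along the gene. Capitals mark matches, on either strand, to GCGCATGCG, the site of nuclear respiratory factor 1 (NRF1), or to CCGGAAG, the core site of ETS factors such as GABP. The other motifs searched were ATGGCGG (YY1) and TCAAGGTCA (estrogen-related receptors). Cox6a1 lies at chr5:115348929-115349208 on the minus strand, Cox8a at chr19:7217587-7217866 on the minus strand, Cox5a at chr9:57520982-57521261 on the plus strand and Ndufb11 at chrX:20617590-20617869 on the minus strand.
Cox6a1: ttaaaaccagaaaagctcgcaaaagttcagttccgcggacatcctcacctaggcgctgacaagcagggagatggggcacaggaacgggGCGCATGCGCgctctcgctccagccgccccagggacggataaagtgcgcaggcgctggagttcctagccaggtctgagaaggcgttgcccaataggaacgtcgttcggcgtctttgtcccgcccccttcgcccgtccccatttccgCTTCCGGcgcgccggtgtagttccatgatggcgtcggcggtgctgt
Cox8a: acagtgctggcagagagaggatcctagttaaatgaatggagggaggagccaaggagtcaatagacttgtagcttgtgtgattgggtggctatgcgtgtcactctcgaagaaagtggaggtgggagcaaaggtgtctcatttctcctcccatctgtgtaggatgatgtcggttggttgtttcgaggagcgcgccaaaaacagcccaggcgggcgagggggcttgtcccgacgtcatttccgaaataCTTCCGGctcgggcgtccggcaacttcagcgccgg
Cox5a: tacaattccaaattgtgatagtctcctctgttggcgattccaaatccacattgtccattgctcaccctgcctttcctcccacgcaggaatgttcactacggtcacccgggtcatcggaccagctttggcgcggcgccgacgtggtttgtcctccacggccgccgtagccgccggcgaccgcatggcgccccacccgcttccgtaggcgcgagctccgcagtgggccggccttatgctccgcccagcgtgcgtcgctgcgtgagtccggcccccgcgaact
Ndufb11: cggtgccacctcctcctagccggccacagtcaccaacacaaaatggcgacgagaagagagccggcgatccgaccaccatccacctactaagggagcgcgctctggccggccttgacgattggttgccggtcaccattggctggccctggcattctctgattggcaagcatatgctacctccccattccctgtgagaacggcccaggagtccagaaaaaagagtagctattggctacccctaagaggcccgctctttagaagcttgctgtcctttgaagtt
Cox6a1 held overlapping NRF1 matches on both strands, from 162 and 161 bases before the start, and an ETS match from 16 bases before it. Cox8a held an ETS match from 5 bases before its start. Cox5a and Ndufb11 held none of these letters in the window shown. Windows of 300 bases, reaching 50 bases past the start, were found for 63 of the 77 nuclear members. NRF1 letters occurred in 8 of them (12.7%), against 1.81% of 27025 gene windows. ETS letters occurred in 13 (20.6%) against 9.12%, YY1 letters in 9 (14.3%) against 4.19%, and estrogen-related receptor letters in 1 (1.59%) against 0.407%. A match describes the letters and not a bound site.

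The members took up 988904 UMIs for the nuclear and 550450 UMIs for the mitochondrial part. Among the nuclear members, the highest mean over classes in complex I was Ndufc1 with 5.23 UMIs per 10000. Uqcrq led complex III with 5.89, Cox6c led complex IV with 11.7 and Atp5b, the catalytic beta subunit, led complex V with 10.9. The mitochondrial UMIs were uneven: mt-Cytb, the cytochrome b of complex III, had 211991, mt-Nd1 had 107286, mt-Nd4 65477, mt-Nd5 65005, mt-Nd2 55884, mt-Co1 37387, mt-Nd6 4263 and mt-Nd3 3109. The table nearly lacked 3 of the 11, with 12 UMIs for mt-Atp6, 14 for mt-Co2 and 22 for mt-Co3. Words of 50 bases from the last 300 bases of mt-Atp6 also occurred in another annotated gene for 98.8% of the positions, and for 100% in mt-Co2 and 99.6% in mt-Co3. That share was also 100% for mt-Co1 and 98.8% for mt-Nd3, but 0% for mt-Cytb. Of the 88 members, 10 had 50% or more of these words in another gene, among them Cox7c with 73.3%, Atp5l with 70.1%, Ndufs5 with 54.6% and Ndufs3 with 53.0%. How reads with several matches were counted is not given in the sources used here, so counts of these genes are uncertain and the part of shared sequence was not tested.

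Cell classes differed in their summed nuclear subunit transcripts. Over all libraries Müller-like cells had a mean of 194.6 ± 39.97 UMIs per 10000 (SD, n = 12 libraries; 140.4 to 269.3) and microglia or macrophage-like cells 197.7 ± 30.3 (n = 7). These means pool the fractions in unequal shares: within each, microglia or macrophage-like cells had the lowest mean, 212.7 against 213.9 in Müller-like cells of rod-depleted libraries and 160.2 against 180.8 in whole-retina libraries. Rod-like cells had 245.6 ± 69.9 (n = 8), endothelial-like cells 251.6 ± 16.2 (n = 4), cone bipolar-like cells 265.5 ± 49.3 (n = 12) and amacrine-like cells 271.4 ± 58.6 (n = 12). The 4 classes above 300 were rod bipolar-like cells with 325.3 ± 87.3 (n = 12; 192.2 to 473.4), cone-like cells with 345.2 ± 66.9 (n = 12), pericyte-like cells with 369.0 ± 35.6 (n = 5) and horizontal-like cells with 381.6 ± 68.6 (n = 6). Pericyte-like cells came from rod-depleted libraries only, where rod bipolar-like cells had 379.4, cone-like cells 384.7 and horizontal-like cells 411.6. Within either fraction, each class overlapped its neighbour in the order, so the order is of means and not of separate levels.

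**Figure D1:**
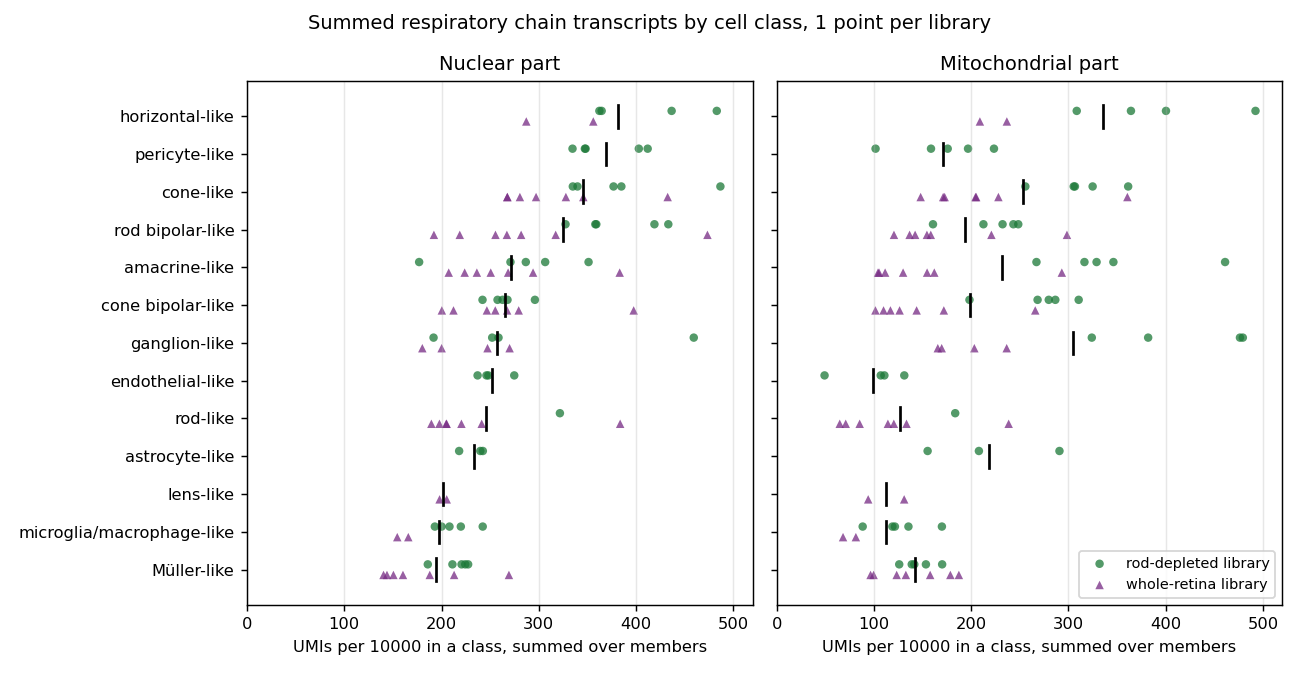
Summed nuclear (left) and mitochondrial (right) subunit transcripts of each cell class, in UMIs per 10000. Each point is a library (circles rod-depleted, triangles whole retina) and the bar is the mean over libraries. Horizontal-like cells have the highest nuclear mean (381.6), while in rod-depleted libraries the mitochondrial mean is higher in ganglion-like (415.4) than in horizontal-like cells (391.3). The mitochondrial points of ganglion-like cells divide by fraction and those of amacrine-like cells overlap.

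The mitochondrial part followed another order. Endothelial-like cells had the lowest mean, 99.6 ± 35.2 UMIs per 10000 (n = 4), followed by microglia or macrophage-like cells with 112.0 ± 35.2 (n = 7) and rod-like cells with 126.5 ± 59.3 (n = 8). Rod bipolar-like cells had 194.1 ± 55.7 (n = 12), cone-like cells 253.7 ± 76.0 (n = 12), ganglion-like cells 304.6 ± 130.3 (n = 8) and horizontal-like cells 335.2 ± 105.9 (n = 6). In rod-depleted libraries alone, ganglion-like cells had 415.4 and horizontal-like cells 391.3. The nuclear sum was 2.90 ± 1.43 times the mitochondrial sum in endothelial-like cells of the rod-depleted libraries and 0.756 times in ganglion-like cells. Amacrine-like cells had a ratio of 0.857 in rod-depleted and 1.88 in whole-retina libraries. Their mitochondrial sum differed by -1.21 (log2, whole retina minus rod-depleted, adjusted for age and oxygen), while their nuclear sum differed by -0.03. Ganglion-like cells showed the same pair of values, -1.16 and -0.01, and cone bipolar-like cells -0.88 and -0.00. The labels put both fractions in the same sequencing run only for the NORM libraries at P17, where the mitochondrial sums were 346.2 (rod-depleted) and 293.2 (whole retina) in amacrine-like and 310.5 and 265.9 in cone bipolar-like cells. Among the other libraries fraction and run cannot be told apart.

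Single subunits varied more between classes than the sums. Among nuclear members with a mean of at least 1 UMI per 10000, the widest ratio between the highest and lowest class was 8.43 for Ndufs1, the iron-sulfur subunit of complex I, with 1.74 in cone-like and 0.206 in microglia or macrophage-like cells. Cox5a, which binds the matrix side of complex IV, had a ratio of 7.38, with 11.7 ± 2.06 in horizontal-like, 5.39 in cone-like and 1.58 ± 0.60 in Müller-like cells. Atp5g1, which encodes a copy of the c subunit of the ATP synthase rotor, had a ratio of 5.56, with 6.85 ± 3.31 in cone-like and 1.23 in Müller-like cells. Ndufb11, an accessory subunit of the membrane arm of complex I, had a ratio of 4.73, with 7.75 ± 3.92 in cone-like, 5.21 in rod-like and 1.64 in astrocyte-like cells. The highest class was thus cone-like for 3 of these 4 genes and horizontal-like for Cox5a.

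**Figure D2:**
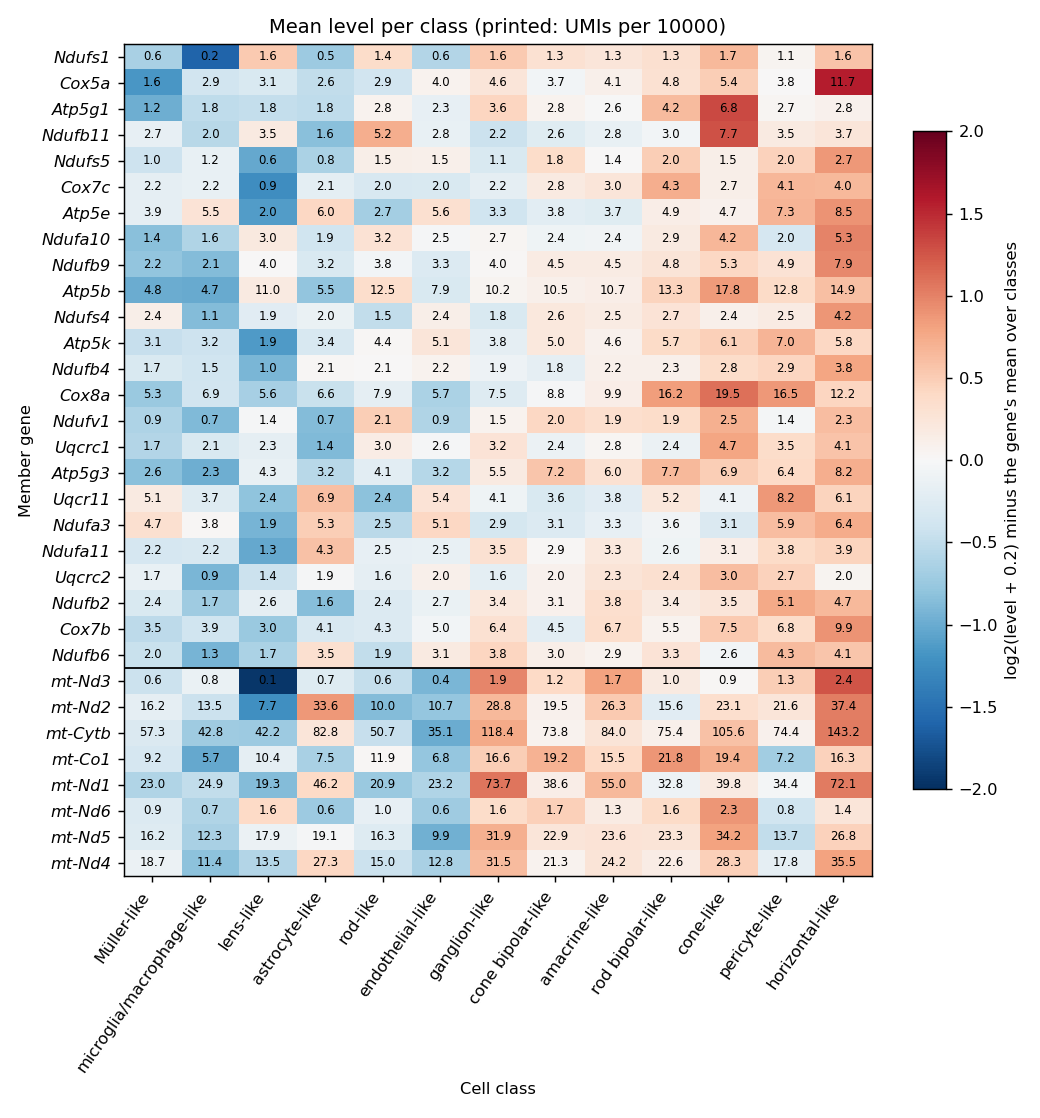
Mean level in each cell class (columns) of 24 nuclear members with wide class ratios and, under the line, the mitochondrial members with a mean of at least 1 UMI per 10000. Printed numbers are UMIs per 10000 and colours are log2(level + 0.2) minus the mean of the gene over classes. Cox5a reaches 11.7 in horizontal-like cells and 1.58 in Müller-like cells.

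Subunits with isoforms had mostly 1 form detected. For the complex IV subunit VIa, Cox6a1 ranged from 5.28 UMIs per 10000 in lens-like to 16.7 ± 6.5 in horizontal-like cells, while the heart and muscle form Cox6a2 reached at most 0.0519. For VIb, Cox6b1 ranged from 3.94 in lens-like to 11.04 in pericyte-like cells. Cox6b2, known as a testis form, had 0.847 in Müller-like and 0.687 in ganglion-like cells but 0.0206 in horizontal-like cells. For VIIa, Cox7a2 ranged from 3.73 in microglia or macrophage-like to 11.7 in horizontal-like cells. The muscle form Cox7a1 was highest in ganglion-like (0.366), pericyte-like (0.341) and horizontal-like cells (0.336). Cox8a ranged from 5.32 in Müller-like to 19.5 in cone-like cells, and the muscle form Cox8b stayed at or under 0.0444. The c subunit came mostly from Atp5g3 and Atp5g1: Atp5g3 ranged from 2.35 in microglia or macrophage-like to 8.17 in horizontal-like cells, while Atp5g2 stayed at or under 0.0906, with 41.4% of its 3′ words in another gene. Cox5b, a different subunit of complex IV from Cox5a and not an isoform of it, ranged from 2.55 in Müller-like to 7.61 in pericyte-like cells.

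Among the mitochondrial genes, mt-Cytb ranged from 35.1 UMIs per 10000 in endothelial-like to 143 in horizontal-like cells, with 118 in ganglion-like and 106 in cone-like cells. mt-Nd1 ranged from 19.3 in lens-like to 73.7 in ganglion-like cells, and mt-Nd2 from 7.7 in lens-like to 37.4 in horizontal-like cells. mt-Nd4 ranged from 11.4 in microglia or macrophage-like to 35.5 in horizontal-like cells and mt-Nd5 from 9.87 in endothelial-like to 34.2 in cone-like cells. mt-Co1, the catalytic subunit of complex IV, was highest in rod bipolar-like cells, with 21.8 against 5.66 in microglia or macrophage-like cells. The low-count mt-Nd6 lay between 0.631 in astrocyte-like and 2.32 in cone-like cells, and mt-Nd3 between 0.0826 in lens-like and 2.42 in horizontal-like cells. Genes beside the rule gave a contrast: Ndufa4l2 had 17.6 in pericyte-like and 6.72 in Müller-like cells and Cox4i2 7.52 and 8.75, while Ndufa4 ran from 2.67 in pericyte-like to 18.8 in cone-like cells.

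Glia and rod bipolar neurons were then compared within the 12 libraries that held both. Müller-like cells had lower levels of most subunits of every complex: 65 of the 79 members tested passed an adjusted p of 0.05 (limma on log2(level + 0.2) with library as a term, Benjamini-Hochberg adjustment over all genes), 63 of them lower. Of all 7662 genes tested, 61.2% passed and 35.8% passed as lower, so the share of members lower has to be read against that. Nuclear members numbered 58 of 71 and mitochondrial members 7 of 8. The median difference was -0.68 (log2, Müller-like minus rod bipolar-like) for nuclear and -0.44 for mitochondrial members, against -0.16 for all genes. In complex I 27 of 36 nuclear members passed, 26 of them lower. In complex III 6 of 8 passed, in complex IV 11 of 11 and in complex V 14 of 16.

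Cox8a, the smallest subunit of complex IV, had 2.86 to 8 UMIs per 10000 in Müller-like cells (mean 5.32 ± 1.43, n = 12) and 7.04 to 25.1 in rod bipolar-like cells (16.2 ± 5.28). The ranges overlapped but every library had less in its Müller-like cells, with a log2 difference of -1.54 (SE 0.10; limma, Benjamini-Hochberg adjusted p = 1.4e-12). Atp5b had 2.97 to 10.3 (4.82 ± 1.94) against 9.84 to 22.6 (13.3 ± 3.52), a difference of -1.47 (SE 0.08; limma, adjusted p = 8.2e-14). Ndufv3, a subunit of the NADH-binding module, had 1.59 to 6.07 (2.61 ± 1.16) against 5.16 to 11.2 (8.10 ± 2.15), a difference of -1.59 (SE 0.11; limma, adjusted p = 2.5e-12). Atp5g1, with 1.23 ± 0.488 against 4.16 ± 2.42, differed by -1.54 (SE 0.15; limma, adjusted p = 4.4e-09). All 4 were lower in 12 of 12 libraries.

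The other 6 of the 10 largest decreases were Atp5g3 (2.62 against 7.73 UMIs per 10000), Ndufa5 (log2 difference -1.46), Cox5a (1.58 against 4.76), Uqcrb of complex III (2.57 against 6.47), Ndufb8 (1.82 against 4.54) and Ndufb9 (-1.12). Only 2 members were higher in Müller-like cells. Cox6b2 had 0.847 against 0.195 (+1.38, in 12 of 12 libraries), and Ndufa3, an accessory subunit of complex I, had 4.72 against 3.55 (+0.41, in 11 of 12; limma, adjusted p = 0.0016). Ndufc1 differed by -0.01, with a limma adjusted p of 0.95. In the mitochondrial part mt-Co1 had 9.24 against 21.8 (-1.12), while mt-Nd6 (-0.55), mt-Nd5 (-0.50), mt-Nd1 (-0.47) and mt-Nd3 (-0.41) were lower by less. mt-Nd2, at +0.09 with a limma adjusted p of 0.45, was the member that did not pass. In related lists 10 of 11 citrate cycle genes (median -1.11) and 12 of 20 glycolysis genes (median -0.79) were lower. Of all genes 58.9% were below 0 and 35.8% passed as lower. The summed glycolysis level was not lower in Müller-like cells. Its means were 131 UMIs per 10000 in NORM and 121 in OIR, against 84.6 and 120 in rod bipolar-like cells. Immediate early genes, which respond to tissue dissociation, were higher in 7 of 7 with a median of 4.82; their part in the comparison was not tested.

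**Figure D3:**
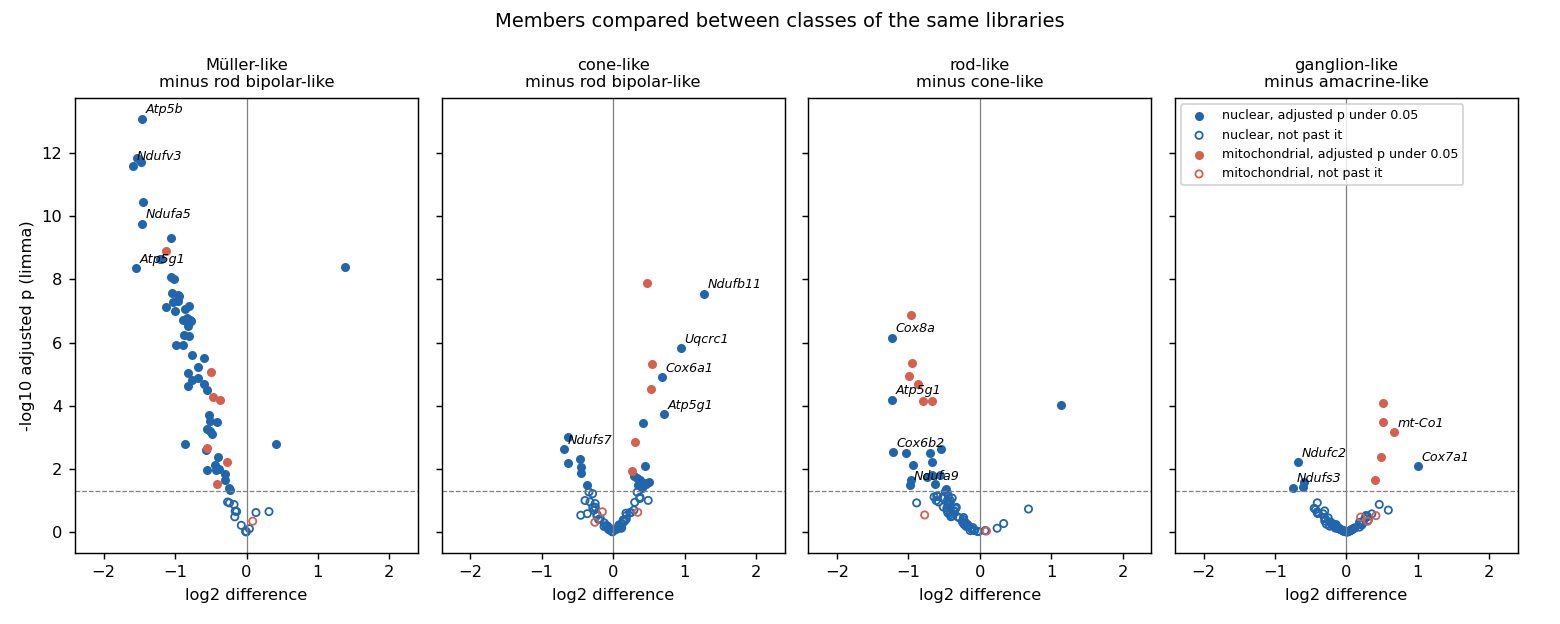
Each member's log2 difference between a pair of cell classes within the same libraries (horizontal axis) against -log10 of its limma adjusted p (vertical axis), with filled points past 0.05 and some of the largest differences named. Müller-like against rod bipolar-like cells has 63 members lower and 2 higher, and rod-like against cone-like cells has 21 lower.

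Cone-like cells were set against rod bipolar-like cells in the same 12 libraries. Here 26 of 79 members passed the limma test, 19 higher and 7 lower in cone-like cells, a smaller share than the 36.9% of all genes. The shares of all genes passing as higher and as lower are not given here. The medians were 0.08 for nuclear and 0.32 for mitochondrial members, against -0.17 for all genes. Ndufb11 had the largest difference, with 7.75 ± 3.92 UMIs per 10000 in cone-like and 2.96 ± 0.794 in rod bipolar-like cells (log2 1.27, SE 0.15; limma, Benjamini-Hochberg adjusted p = 2.9e-08), and was higher in 12 of 12 libraries. Uqcrc1, a core protein of complex III, had 4.73 against 2.42 (0.95), Cox6a1 had 10.6 against 6.41 (0.68) and Atp5g1 differed by 0.71. Of the 8 mitochondrial members 5 were higher: mt-Nd5 (0.54), mt-Nd2 (0.53), mt-Cytb (0.48, 106 ± 33.1 against 75.4 ± 22.8), mt-Nd4 (0.30) and mt-Nd1 (0.27). The 7 lower members were Ndufs7 (-0.69), Ndufa6 (-0.63), Cox7c (-0.63), Ndufa5 (-0.46), Ndufc2 (-0.46), Ndufa13 (-0.45) and Ndufv3 (-0.37), all but Cox7c of complex I. Rod transcripts reached 141 to 325 per 10000 in cone-like cells, with a median over 5 genes that was 4.71 higher (log2) than in rod bipolar-like cells; their part was not tested.

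Rod-like cells had less than cone-like cells in the 8 libraries with both. Of 78 members, 22 passed, 21 of them lower in rod-like cells, where 13.9% of all genes passed and 7.6% were lower. The medians were -0.41 for nuclear and -0.83 for mitochondrial members, and 0.03 for all genes. Cox8a had 7.91 ± 3.30 UMIs per 10000 in rod-like and 17.9 ± 3.56 in cone-like cells (log2 -1.22; limma, Benjamini-Hochberg adjusted p = 7e-07). Atp5g1 had 2.75 ± 1.76 against 6.503 ± 3.13 (-1.23; limma, adjusted p = 6.4e-05), and mt-Cytb 50.7 ± 28.1 against 93.1 ± 33.1 (-0.97; limma, adjusted p = 1.3e-07). Other lower members were Cox6b2 (-1.22), Ndufa8 (-1.03), mt-Co1 (-0.99), Cox5a (-0.97), Ndufa9 (-0.97), mt-Nd5 (-0.95) and Atp5j (-0.94). The count of members rose to 37 without the NORM whole-retina library at P17, to 48 with 500 UMIs per cell and to 49 where a class needed 50 cells. The shares of all genes passing in those fits are not given here.

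Ganglion-like cells were set against amacrine-like cells in the same libraries. In the 8 shared libraries 10 of 80 members passed, 6 higher and 4 lower, a smaller share than the 19.8% of all genes. The shares of all genes passing as higher and as lower are not given here. The medians were 0.45 for mitochondrial and -0.10 for nuclear members, against -0.21 for all genes. mt-Cytb had 118 against 89.8 UMIs per 10000 (log2 0.51; limma, Benjamini-Hochberg adjusted p = 8.3e-05) and mt-Nd1 73.7 against 56.1 (0.52; limma, adjusted p = 0.00033). mt-Co1 had 16.6 ± 7.15 against 11.1 ± 6.70 (0.66), while mt-Nd5 (0.48) and mt-Nd4 (0.40) were also higher. The nuclear Cox7a1 had 0.366 against 0.0511 (1.004; limma, adjusted p = 0.0083) and was higher in 7 of 8 libraries. Lower were Ndufs3 (-0.75), Ndufc2 (-0.68), Ndufa7 (-0.60) and Uqcrh, the hinge protein of complex III (-0.59). The count fell to 3 with no filter on low values. It fell to 6 without any 1 of OIR whole-retina replicates 2 and 3 at P14 and the OIR rod-depleted library at P17. Without both of those P14 replicates it fell to 4. The shares of all genes passing in those fits are not given here.

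No member passed the adjusted threshold between OIR and NORM in any of the 10 classes tested. The model was limma with age and fraction as terms and Benjamini-Hochberg adjustment over all genes of a class. The share of all genes that passed was 0.314% in rod bipolar-like, 0.231% in Müller-like, 0.14% in cone bipolar-like, 0.0122% in amacrine-like, 0.0145% in cone-like, 0.101% in microglia or macrophage-like and 0.786% in pericyte-like cells, and 0 in ganglion-like, horizontal-like and rod-like cells. At an unadjusted limma p under 0.05 the members counted 29 of 78 in rod bipolar-like cells (12.7% of all genes), 21 of 77 in rod-like (11.4%), 16 of 79 in ganglion-like (9.43%) and 13 of 79 in cone bipolar-like cells (9.36%). They counted 13 of 78 in pericyte-like (14.3%), 11 of 78 in horizontal-like (8.89%), 7 of 79 in amacrine-like (8.82%), 6 of 78 in cone-like (8.95%), 5 of 79 in Müller-like (11.8%) and 4 of 76 in microglia or macrophage-like cells (5.2%). In the last 4 classes the share was close to or below that of all genes. On simulated data for rod bipolar-like cells, the test called 7 of 100 genes changed by 1 on the log2 scale and 0 of 100 changed by 0.5. The changed genes were drawn at random from all genes tested, and each gene varied independently between libraries. The measured levels averaged several draws per cell, and whether the simulated levels had the same noise was not tested. That rate therefore need not hold for the members or for the measured levels, where it could be higher or lower. No simulation was run for the other classes.

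In rod bipolar-like cells the nuclear differences leaned one way: 67 of 70 nuclear members were below 0 in OIR minus NORM, with a median of -0.38 against 0.05 for all genes, of which 44.7% were below 0. The 29 members at an unadjusted p under 0.05 were all lower, where 4.62% of all genes were. Complex I had 36 of 36 members below 0 (median -0.35), complex III 7 of 8 (-0.36), complex IV 9 of 10 (-0.45) and complex V 15 of 16 (-0.39). The mitochondrial part had 6 of 8 below 0, with a median of -0.10. The summed nuclear level was 433 and 282 UMIs per 10000 in the rod-depleted and whole-retina NORM libraries at P14, and 419 and 473 at P17. OIR libraries ran from 192 over a median of 292 to 359, so the groups overlapped through the NORM whole-retina library at P14. The log2 difference of the sums was -0.41 (residual SD 0.23), and -0.27 within the run that held NORM and OIR rod-depleted libraries at P14 but -0.08 within the run of the whole-retina pair. The mitochondrial sum differed by -0.27 over all libraries and by 0.13 and 0.63 within those runs. The median of the nuclear members was -0.26, with 62 of 70 below 0, without the NORM whole-retina library at P17.

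**Figure D4:**
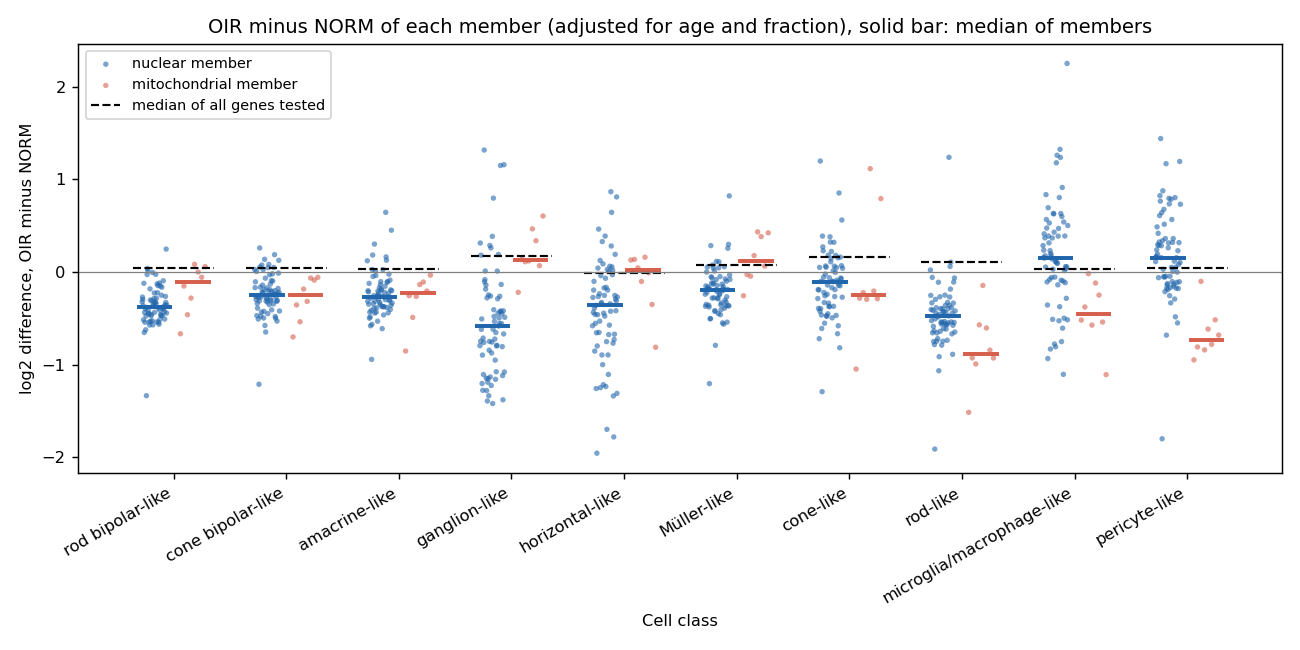
Log2 difference, OIR minus NORM, of each member (1 point a gene, nuclear blue, mitochondrial red) in 10 cell classes, with solid bars at the median of the members and dashed bars at the median of all genes. In rod bipolar-like cells 67 of 70 nuclear members lie below 0, and in microglia or macrophage-like cells 22 of 68.

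Within that group the single genes were these. Cox7a2 had 12.1 and 8.41 UMIs per 10000 in NORM at P14 (rod-depleted, then whole retina), 11.7 and 12.1 at P17, and 3.77 to 9.78 in OIR (median 7.26), a difference of -0.57 (log2, SE 0.19; limma, adjusted p = 0.24). Ndufa13, an accessory subunit of complex I, had 7.23, 5.01, 8.28 and 9.94 in NORM and 3.52 to 5.90 in OIR (median 4.70), a difference of -0.57 (SE 0.17; limma, adjusted p = 0.211). Both overlapped through the NORM whole-retina library at P14. Ndufa7, at the base of the peripheral arm of complex I, had 4.81, 4.78, 6.25 and 4.68 in NORM and 2.88 to 4.49 in OIR (median 3.50), so the groups did not overlap (-0.43, SE 0.16; limma, adjusted p = 0.30). Ndufv2 (-0.38) did not overlap there either, and the share of all genes without overlap was not counted. Uqcr11, a small subunit of complex III, had 6.82, 4.67, 6.72 and 8.90 against 3.16 to 7.07 (median 4.14; -0.51, SE 0.19). Atp5l, subunit g of complex V, had the largest difference in its complex, -1.34 (SE 0.50), but it rested on 1 library: NORM had 0.683, 0.441, 1.43 and 6.88, the last in the NORM whole-retina library at P17, against 0 to 0.956 in OIR.

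**Figure D5:**
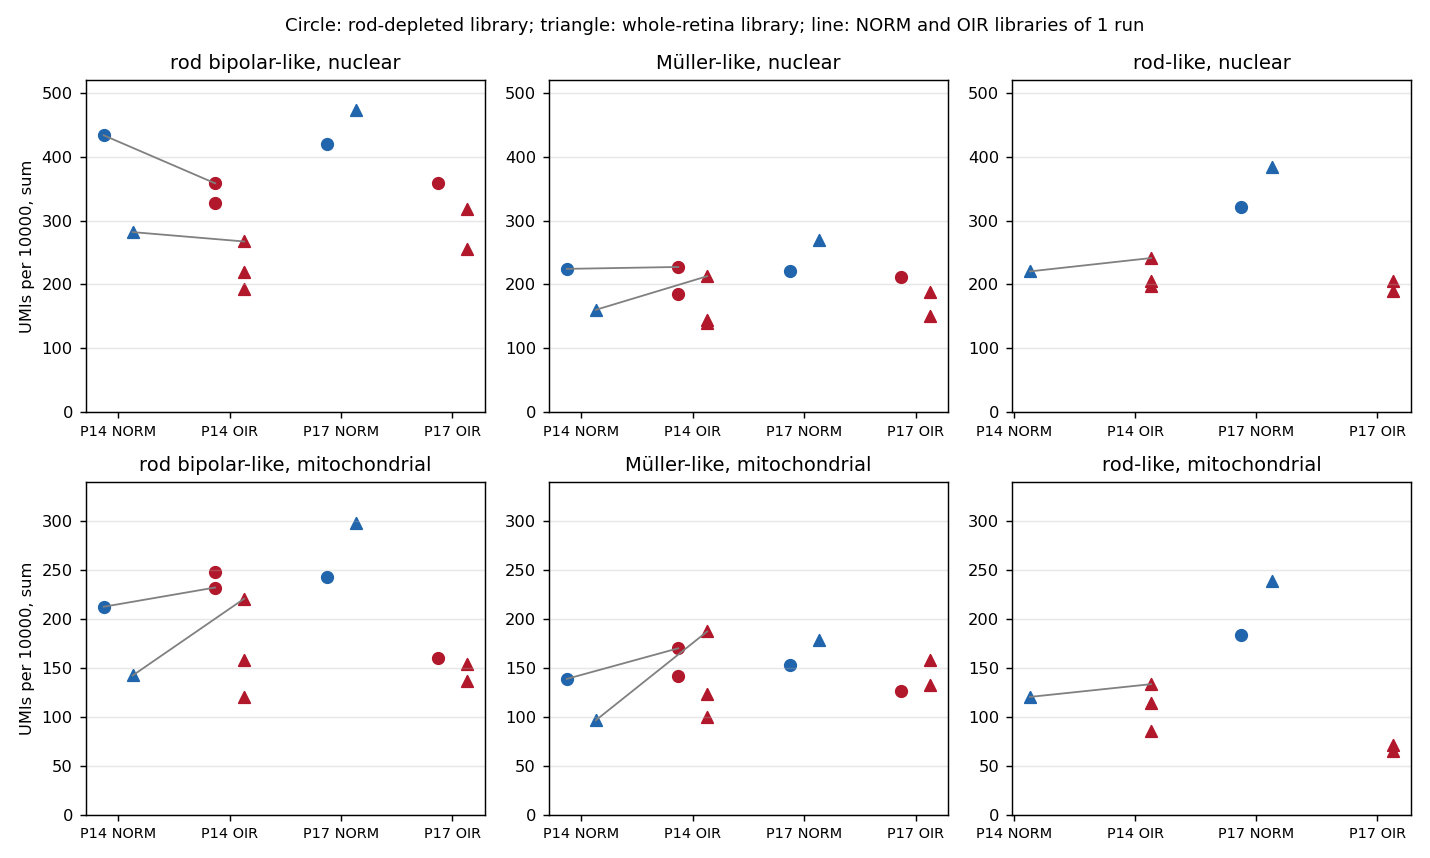
Summed nuclear (top) and mitochondrial (bottom) subunit transcripts, in UMIs per 10000, of rod bipolar-like, Müller-like and rod-like cells in each library by age and oxygen. Grey lines join NORM and OIR libraries of the same run. In rod bipolar-like cells the NORM whole-retina library at P14 (282) lies within the OIR range, 192 to 359.

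Rod-like cells had 65 of 69 nuclear members below 0 (median -0.48, all genes 0.11) and 8 of 8 mitochondrial members (-0.89). Their summed nuclear level was 220 in the NORM whole-retina library at P14, 322 and 384 in the rod-depleted and whole-retina NORM libraries at P17, and 190 to 241 in OIR. The mitochondrial sum was 120, 184 and 239 in NORM and 65 to 134 in OIR. The lowest NORM library thus overlapped the OIR libraries in both sums. The fraction term took up the only rod-depleted library of this class, so the fitted differences rest on the NORM whole-retina libraries. Without the NORM whole-retina library at P17 the nuclear median was -0.13 and the mitochondrial -0.10. Without the one at P14 they were -0.90 and -1.54. In the fit without the P14 library 38 members passed, and 1 in the fit without the P17 library. The shares of all genes passing in those fits are not given here, so the counts cannot be read as particular to the members. The pair of libraries sequenced together at P14 gave 0.13 for the nuclear and 0.15 for the mitochondrial sum, against -0.48 and -0.93 over all libraries.

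In Müller-like cells 59 of 71 nuclear members were below 0 (median -0.19, all genes 0.07) and 3 of 8 mitochondrial members (median 0.12). Without the NORM whole-retina library at P17 the nuclear median was -0.08, with 47 of 72 below 0. Ndufa11, a membrane-arm subunit of complex I, had 2.28, 2.71, 3.94 and 3.93 UMIs per 10000 in NORM (P14 rod-depleted and whole, then P17) and 0.85 to 2.48 in OIR (median 1.64), a difference of -0.79 (SE 0.23; limma, adjusted p = 0.195). Uqcrfs1, the Rieske iron-sulfur protein of complex III, had 1.19, 2.02, 0.293 and 0.299 against 0.979 to 2.15 (median 1.39), a difference of +0.82 (SE 0.33; limma, adjusted p = 0.36). Uqcrfs1 was above 0 in 9 of 10 classes, but it was also at least 3-fold under the median of the other libraries in 8 of 10 classes of the NORM rod-depleted library at P17. Cox5a differed by +0.28 in these cells, and Atp5l by -1.21 with 2.27 in the NORM whole-retina library at P17. The nuclear sums of the pairs within runs differed by 0.02 (rod-depleted) and 0.41 (whole retina), against -0.21 over all libraries, and the mitochondrial sums by 0.29 and 0.96, against 0.05.

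Cone-like cells had 46 of 70 nuclear members below 0 (median -0.11, all genes 0.16). The members with the largest difference in each complex were Ndufv1 at 0.85, where NORM ran from 0 in the whole-retina library at P17 to 4.11 and OIR from 1.98 to 3.47, Uqcrfs1 at 0.56, Cox6b2 at -0.55 and Atp5l at -1.29. The nuclear sums within runs differed by -0.52 in the rod-depleted and 0.29 in the whole-retina pair, against -0.21 over all libraries. The mitochondrial sums differed by 0.15 and 0.16 within runs, against -0.34 over all libraries. Without the NORM whole-retina library at P14, 1 member passed in this class. The share of all genes passing in that fit is not given here.

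The other neurons were mostly below 0 in the nuclear part: 59 of 71 in cone bipolar-like (median -0.24), 61 of 71 in amacrine-like (-0.27), 59 of 71 in ganglion-like (-0.58) and 54 of 70 in horizontal-like cells (-0.35). Mitochondrial members split, with 8 of 8 below 0 in cone bipolar-like (-0.25) and amacrine-like cells (-0.23) but 1 of 8 in ganglion-like (0.13) and 4 of 8 in horizontal-like cells (0.02). Without the NORM whole-retina library at P17 the members below 0 were 4 of 8 in cone bipolar-like (-0.0082) and 4 of 8 in amacrine-like cells (0.0453). Horizontal-like cells had nuclear sums of 437 and 483 in NORM, where both libraries were rod-depleted. OIR had 362 and 365 in rod-depleted and 287 and 356 in whole-retina libraries, so the groups did not overlap. The log2 difference was -0.41 within the rod-depleted run. Amacrine-like sums differed by -0.29 over all libraries but by -0.99 and 0.32 in the rod-depleted and whole-retina pairs of a run, and cone bipolar-like sums by -0.27 over all libraries and by -0.20 and 0.07. The mitochondrial sums differed by -0.35 over all libraries and by 0.49 and 0.25 within runs in amacrine-like cells, by -0.37 and by -0.03 and 0.56 in cone bipolar-like cells, and by 0.03 and, in the rod-depleted run, 0.30 in horizontal-like cells. In ganglion-like cells the nuclear sum differed by -0.61 over all libraries and by -0.39 within the rod-depleted run, and the mitochondrial sum by 0.12 and 0.01.

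Microglia or macrophage-like and pericyte-like cells leaned the other way in the nuclear part. In microglia or macrophage-like cells 22 of 68 nuclear members were below 0 (median 0.15) but 8 of 8 mitochondrial members (-0.45). That mitochondrial sum differed by -0.34 over all libraries, but by 0.19 within the rod-depleted run and by 0.11 without the OIR rod-depleted library at P17. In pericyte-like cells 26 of 70 nuclear members were below 0 (median 0.16) and 8 of 8 mitochondrial members (-0.73). Their nuclear sums were 335 and 347 in NORM and 348, 403 and 412 in OIR, and their mitochondrial sums 197 and 223 against 102, 159 and 176, so neither overlapped. Within the rod-depleted run the log2 differences were 0.30 and -0.35, against 0.16 and -0.65 over all libraries. Other values moved with these: summed rod transcripts were 6.54 ± 2.88 UMIs per 10000 in NORM and 0.828 ± 0.765 in OIR, and mitochondrial rRNA 75.8 ± 14.1 and 34.5 ± 9.75 (n = 2 and 3), neither overlapping, and their part was not tested. In this class mt-Cytb had 98.3 and 96.0 against 56.2, 77.3 and 44.0 (-0.81, SE 0.21; limma, Benjamini-Hochberg adjusted p = 0.0685). Cox4i2, the complex IV isoform beside the rule, had 11.7 and 12.6 against 4.37, 5.07 and 3.89 in these cells (-1.43; limma, adjusted p = 0.0294).

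Some library values moved with these results. The NORM whole-retina library at P17 was the shallowest, held 105 to 110 rod transcripts per 10000 in its Müller-like, amacrine-like, cone bipolar-like and rod bipolar-like cells and 325 in its cone-like cells, and had 7.62% of 2245 genes at least 3-fold above or below the median of the other libraries in most classes, against 1.69% to 3.92% elsewhere. mt-Co1 and Ndufs5 were high in 6 of 6 classes there. In the NORM whole-retina library at P14, mt-Nd3 and Ndufs5 were low in 6 of 6 classes. mt-Nd3 was also high in 4 of 7 classes of OIR rod-depleted replicate 1 and low in 7 of 7 and 5 of 7 classes of OIR whole-retina replicates 2 and 3 at P14, where Atp5k (5 of 7) and Cox7c (4 of 7) were low in replicate 3. In the whole-retina run that paired NORM and OIR at P14, rod transcripts went from 7.59 to 35.9 per 10000 in rod bipolar-like and from 10.6 to 49.5 in Müller-like cells. Their part in the differences was not tested.

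Between P14 and P17, 2 members passed, both in ganglion-like cells and both of complex I. No run named in the labels held libraries of both ages. For these calls and for the age medians of all classes, age therefore cannot be told apart from run. Ndufa11 had 3.53 in NORM and 0.78, 2.11 and 1.17 in OIR at P14, and 6.27 in NORM and 4.91, 5.15 and 4.21 in OIR at P17. The groups did not overlap, with means of 1.90 ± 1.22 and 5.13 ± 0.855 UMIs per 10000 (log2 1.52, SE 0.37; limma, Benjamini-Hochberg adjusted p = 0.038). Ndufa5 had 2.82 in NORM and 1.51, 2.28 and 2.56 in OIR at P14, and 8.27 in NORM and 5.03, 5.10 and 7.46 in OIR at P17 (2.29 ± 0.565 against 6.46 ± 1.65; 1.42, SE 0.35; limma, adjusted p = 0.038). Of all genes in ganglion-like cells, 0.204% passed. No member passed without OIR rod-depleted replicate 2 or OIR whole-retina replicate 2 or 3 at P14, or without any OIR library at P17, and the fits without a NORM library could not be made; the count was also 0 with unthinned cells.

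Most nuclear members lay above 0 for P17 minus P14 in 7 of 10 classes without passing. The median was 0.57 in ganglion-like cells, with 65 of 71 above 0, 0.29 in rod bipolar-like cells, with 63 of 70, and 0.13 in Müller-like cells, with 57 of 71. It was 0.20 in amacrine-like, 0.19 in cone bipolar-like, 0.11 in rod-like and 0.10 in cone-like cells, but -0.04 in microglia or macrophage-like (38 of 68 below 0), -0.05 in pericyte-like and -0.02 in horizontal-like cells. Without the NORM whole-retina library at P14 the rod-like median was -0.0916 (42 of 69 below 0) and the cone-like median 0.0173 (32 of 71). In the other classes above 0 the median stayed at 0.0501 or more in each fit without 1 library. Mitochondrial medians were -0.42 in ganglion-like (8 of 8 below 0), -0.52 in horizontal-like, -0.43 in pericyte-like, -0.27 in rod-like, -0.20 in microglia or macrophage-like and -0.13 in amacrine-like cells. They were -0.0032 in rod bipolar-like, 0.05 in cone-like, 0.07 in cone bipolar-like and 0.13 in Müller-like cells. Unadjusted limma p-values under 0.05 numbered 20 of 79 members in ganglion-like (8.75% of all genes), 18 of 78 in rod bipolar-like (11.1%), 13 of 79 in amacrine-like (9.6%), 11 of 79 in cone bipolar-like (11.5%) and 10 of 78 in horizontal-like cells (8.33%). They numbered 8 of 78 in pericyte-like (7.03%), 6 of 79 in Müller-like (12.7%), 5 of 78 in cone-like (5.6%), 4 of 77 in rod-like (12%) and 3 of 76 in microglia or macrophage-like cells (3.66%). The Müller-like and rod-like shares were below those of all genes. The share of all genes passing the adjusted threshold was 0.0713% in rod bipolar-like, 0.258% in Müller-like, 0.281% in cone bipolar-like, 0.0122% in amacrine-like, 0.0145% in cone-like and in horizontal-like, 0.131% in rod-like, 0.072% in microglia or macrophage-like and 0.0582% in pericyte-like cells. For the fits without 1 library that follow, this share is not given here. Without the NORM whole-retina library at P17, 1 member passed in cone bipolar-like and 1 in rod-like cells, and 1 also passed in rod-like cells without that of P14.

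The difference of the OIR effect between P17 and P14 passed for 10 of 77 members in rod-like cells, all lower at P17, where 4.21% of all genes passed and 0.801% passed as lower. That fit had 3 residual degrees of freedom. The NORM rod-depleted library at P17 was the only rod-depleted library of this class, so the fraction term took up its values. The fitted term therefore rests on 1 NORM whole-retina library at each age. The labels put both NORM libraries at P17 in 1 run and no OIR library at P17 in it, so the OIR effect at P17, and with it this difference, cannot be told apart from run. For mt-Co1 the NORM whole-retina library at P14 had 9.41 UMIs per 10000 against 17.3, 7.63 and 10.7 at P14, and 10.6 and 34.1 in NORM against 2.80 and 2.86 in OIR at P17 (log2 difference of differences -3.75; limma, Benjamini-Hochberg adjusted p = 0.0115). mt-Cytb had 41.8 against 48.7, 32.1 and 39.2 at P14 and 84.6 and 103 against 26.2 and 29.9 at P17 (-1.79; limma, adjusted p = 0.0239). Here the OIR libraries at P17 were below every NORM library and every P14 library.

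Others in rod-like cells were Ndufs5 (-3.89; 0.12 against 1.85, 0.56 and 0.92 at P14, 4.36 and 3.11 against 0.52 and 0.76 at P17), Ndufc2 (-1.67), Atp5j (-1.65), Ndufb8 (-1.55), Ndufc1 (-1.46), mt-Nd4 (-1.40) and Cox6c (-1.19). Ndufs5 was also low in 6 of 6 classes of the NORM whole-retina library at P14 and, with mt-Co1, high in 6 of 6 classes of that at P17. For the fits without 1 library that follow, in rod-like and ganglion-like cells, the share of all genes passing is not given here. Only 2 members, mt-Co1 among them, passed without either OIR whole-retina library at P17, 22 members passed without OIR whole-retina replicate 3 at P14, and the term could not be fitted without the NORM whole-retina library of either age. In ganglion-like cells 1 member passed beside 0.702% of all genes: Atp5o, which joins the head of complex V to its peripheral stalk, had 1.55 in NORM at P14 against 4.53, 2.98 and 3.94 in OIR, and 10.3 at P17 against 3.15, 1.67 and 3.57 (-3.06, SE 0.71; limma, Benjamini-Hochberg adjusted p = 0.0144). It did not pass in unthinned cells, nor without OIR whole-retina replicate 2 or 3 at P14 or replicate 2 at P17, while 3 members passed without OIR rod-depleted replicate 2 at P14 or the OIR rod-depleted library at P17.

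In the remaining classes no member passed for this difference. Unadjusted limma p-values under 0.05 numbered 10 of 78 in cone-like (9.24% of all genes), 9 of 79 in cone bipolar-like (9.38%), 8 of 79 in amacrine-like (7.23%), 7 of 79 in Müller-like (11.2%), 5 of 78 in rod bipolar-like (7.67%) and 4 of 76 in microglia or macrophage-like cells (2.71%). Of all genes 0.0122% passed in amacrine-like and 0.109% in Müller-like cells, and 0 in the other 4 classes. For the fits without 1 library that follow, the share of all genes passing is not given here. Their counts therefore cannot be read as particular to the members. Without the NORM rod-depleted library at P17 the count became 13 in Müller-like, 7 in cone-like, 5 in cone bipolar-like, 2 in amacrine-like and 2 in rod bipolar-like cells. It became 1 in amacrine-like and cone-like cells without the OIR rod-depleted library at P17, and 1 in rod bipolar-like cells without the NORM rod-depleted library at P14.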

How the data were processed

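The deposited table held natural logs of UMI levels per cell: exp of a value minus 1 summed to 10000 in each cell, and 100% of the non-zero values fell within 0.05 of a whole UMI after rescaling, so UMIs were recovered. The authors worked with STAR 2.4.0, bcl2fastq and the GRCm38 (mm10) build, per the submitters' processing notes. The gene annotation, any doublet removal and the handling of multi-mapping reads were not given in the sources used here. A further 5799 columns matched no sample and were not used.

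Cells with at least 200 genes were clustered (scanpy 1.11.5, leidenalg 0.10.2) without the subunit and mitochondrial genes, with no doublet caller in the main result, and named from marker lists. Each cell was thinned to 300 UMIs, averaging 20 draws, and UMIs were summed per class and library. Differences were fitted with limma 3.58.1 in R 4.3.3 on log2(level + 0.2), for genes with a mean of at least 0.2 per 10000 and above 0 in at least 3 libraries. OIR minus NORM and P17 minus P14 had oxygen, age and fraction as terms, a further fit added the product of oxygen and age, and class pairs had library as a term. P-values were adjusted by Benjamini-Hochberg over all genes of a fit. The scripts were tested on simulated data.

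The members and lists were chosen with earlier results of these data known, including a lower nuclear chain in rod bipolar-like cells in OIR. Named members were those past the threshold (for more than 20, the 10 largest in each direction). Per complex they included the nuclear member with the highest mean and that with the largest OIR difference in rod bipolar-like, Müller-like and cone-like cells. Also named were the mitochondrial genes, the isoform sets, Cox5a with Cox5b, and the 5 nuclear members with the widest class ratio. A member is not reported here. Promoters came from RefSeq on GRCm38.p6. Alternatives were cells unthinned or thinned to 500 UMIs, at least 50 cells per class, a pseudocount of 1, no filter, clustering with the subunit genes, removal of called doublets, an oxygen effect per age, a replicate block and leaving out each library. Others were scaling to UMIs outside the mitochondrial genome, centring on the median gene and leaving out cells over 10% mitochondrial. The last removed 0 cells. Leaving out both libraries with lens-like cells, and the check of genes that stand apart in a library, were chosen after seeing the data.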

Additional observations from a re-analysis of the deposited data

Results flagged for a closer look

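The summed nuclear level of horizontal-like cells in OIR was 287.2 UMIs per 10000 in OIR whole-retina replicate 1 at P17, far from the other 3 OIR libraries. It was the only group of 28 tested in which 1 library stood apart by Dixon's criterion, and chance flags about 1 in 20 groups.

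The OIR effect differed between P17 and P14, by the test of that difference, for 10 members in rod-like cells. The differences of the effect (log2, P17 minus P14) included -3.89 for Ndufs5, -3.75 for mt-Co1, -1.79 for mt-Cytb, -1.67 for Ndufc2, -1.65 for Atp5j, -1.55 for Ndufb8, -1.46 for Ndufc1, -1.40 for mt-Nd4 and -1.19 for Cox6c. In ganglion-like cells the same test passed for Atp5o, at -3.06. These terms rest on 1 NORM library at each age in each class. In rod-like cells the NORM rod-depleted library at P17 does not add to them, as the fraction term takes up the only rod-depleted library. No OIR library at P17 is labelled with the run of the NORM libraries at P17. Ndufs5 was low in 6 of 6 classes of the NORM whole-retina library at P14 and, with mt-Co1, high in 6 of 6 classes of that at P17. The cause of the differences was not tested.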

How the results depend on the processing

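Over 78 comparison results, 1009 of 1090 alternative values stayed within a margin of 1.5 times for counts, 1 SD over libraries for levels and 1 residual SD for OIR differences of sums, which is wide enough to include changes to about 0. These values include the alternative without cells over 10% mitochondrial. As 0 cells were over that limit, its values equal the main result and could not move. For 136 calls, each 1 member in 1 comparison, 2339 of 2551 alternative values stayed past the threshold, 212 did not and 0 reversed. With 500 UMIs per cell, 1 member passed for age in cone bipolar-like, for age in pericyte-like and for OIR in pericyte-like cells, 48 passed between rod-like and cone-like cells, the lens-like nuclear level was 211.7 and the microglia or macrophage-like mitochondrial OIR difference 0.0485. With at least 50 cells, 49 passed between rod-like and cone-like cells and the microglia or macrophage-like nuclear level was 231.1. Without both lens-bearing libraries, 2 members passed for the difference of the OIR effect in cone-like cells, 4 between ganglion-like and amacrine-like cells and 0 for age in ganglion-like cells. The 2 age calls in ganglion-like cells became 1 when clustering used the subunit genes, 6 with an oxygen effect per age, and 0 with no filter, with a pseudocount of 1 and unthinned. A replicate block also gave 0 there; with 1 NORM library per group no deviations could be compared, so equal numbers were not shown to pair libraries. Unthinned cells gave 0 for the difference of the OIR effect in ganglion-like cells, and no filter gave 3 between ganglion-like and amacrine-like cells. An oxygen effect per age gave 4 for age and 6 for OIR in rod-like cells. Pairs of the same run at P14 gave, for nuclear sums, 0.41 (Müller-like), -0.99 and 0.32 (amacrine-like), 0.0671 (cone bipolar-like), -0.52 and 0.29 (cone-like), -0.39 (ganglion-like), 0.33 (microglia or macrophage-like), 0.30 (pericyte-like), -0.077 (rod bipolar-like) and 0.13 (rod-like). For mitochondrial sums they gave 0.96 (Müller-like), 0.49 and 0.25 (amacrine-like), 0.56 (cone bipolar-like), 0.15 and 0.16 (cone-like), 0.0089 (ganglion-like), 0.30 (horizontal-like), 0.19 (microglia or macrophage-like), -0.35 (pericyte-like), 0.63 (rod bipolar-like) and 0.15 (rod-like). Leaving out 1 library moved the rod-like OIR difference from -0.96 to -0.0429 (nuclear) and from -1.81 to -0.14 (mitochondrial), and that of microglia or macrophage-like mitochondrial sums from -0.46 to 0.11. Within the margin, the same step moved mitochondrial OIR differences from -0.57 to 0.000949 (amacrine-like), -0.50 to -0.00726 (rod bipolar-like), -0.64 to -0.0992 (cone bipolar-like), -0.47 to -0.0804 (cone-like) and -0.15 to 0.20 (Müller-like). It moved nuclear ones from -0.32 to -0.0462 (Müller-like), -0.38 to -0.0946 (cone-like), -0.36 to -0.13 (cone bipolar-like), -0.43 to -0.17 (amacrine-like) and -0.50 to -0.26 (rod bipolar-like). All of these upper ends but that of the amacrine-like nuclear sum came without the NORM whole-retina library at P17. Counts then ranged from 0 to 38 (OIR, rod-like), 0 to 1 (OIR, cone-like; age, cone bipolar-like and rod-like), 0 to 0 (age, ganglion-like), 6 to 10 (ganglion-like against amacrine-like) and 17 to 37 (rod-like against cone-like). For the difference of the OIR effect they ranged from 0 to 13 (Müller-like), 0 to 2 (amacrine-like and rod bipolar-like), 0 to 5 (cone bipolar-like), 0 to 7 (cone-like), 0 to 3 (ganglion-like) and 2 to 22 (rod-like). The share of all genes passing under each alternative is not given here, so the changed counts cannot be read as particular to the members. The cause of each change was not tested. Depth limits the low-count members and the NORM whole-retina library at P17 most.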
